A study of Mus musculus with 12 samples.

Results

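The genes that encode the secreted and cell-surface part of the Wnt pathway were taken as a set: the Wnt ligands, the Frizzled receptors, the Sfrp and Dkk inhibitors, the R-spondins and their receptors Lgr4, Lgr5 and Lgr6. Members were taken by name, as every probe set annotated to a single gene whose symbol belongs to one of these families, and the rule used no measured value. The set itself was chosen with earlier results of these data known. They came to 45 of 18193 genes (0.247%) and 87 of 45037 probe sets (a probe set is the group of oligonucleotides on the array that reads 1 transcript or part of one): 19 Wnt genes, 11 of the Frizzled family, 4 Sfrp, 4 Dkk, 4 Rspo and 3 Lgr genes. One of the 11, Fzd10os, is an antisense RNA of the Fzd10 locus and not a receptor. RNA was taken from liver, from M. vastus lateralis and from gonadal white adipose tissue (WAT) of females aged 12 weeks, all of them Ghsr-/- (GHSR KO) on a C57BL/6 background, so that the saline controls lacked the ghrelin receptor as well and no wild-type mouse was measured. The UAG mice had received unacylated ghrelin, the ghrelin peptide without its acyl group, ip. at 20 nmol/kg, and the saline mice the vehicle, and tissues were taken after 6 h. Each tissue had 2 UAG and 2 saline arrays (Affymetrix GeneChips, 12 in all). Which mouse gave which array is not stated, so a p-value reflects the spread between the samples alone, which may be technical, and arrays of different tissues may share a mouse.

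Wnt proteins are lipid-modified ligands that bind Frizzled receptors. With an Lrp co-receptor this stabilizes beta-catenin, which acts with TCF/LEF factors on target genes, and with Ror or Ryk receptors other branches are used. R-spondins bound to Lgr receptors keep Frizzled receptors on the cell surface by removing the ubiquitin ligases Rnf43 and Znrf3, Sfrp proteins bind Wnts outside the cell, and Dkk proteins mostly block the Lrp co-receptors. In fat, beta-catenin signalling restrains adipocyte formation; in mouse liver, Wnt2 and Rspo3 from endothelial cells maintain the gene programme of the hepatocytes around the central vein; in muscle, Wnt signals act on satellite cells and on the neuromuscular junction.

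Promoter sequence is shown for 4 members named in the results below: Fzd4 and Sfrp5, the members that were at least 2-fold higher after UAG in WAT, Fzd7, which was highest in muscle, and Wnt5b, which was highest in liver. The sequences are RefSeq's for GRCm38, the 250 bases before the annotated start of transcription, 5′ to 3′ on the strand of the gene. Capitals mark matches on either strand to CTTTG followed by AA, AT, TA or TT, words that fit the core bound by TCF/LEF factors. No match overlapped another.
Fzd4, chr7:89404116-89404365, plus strand: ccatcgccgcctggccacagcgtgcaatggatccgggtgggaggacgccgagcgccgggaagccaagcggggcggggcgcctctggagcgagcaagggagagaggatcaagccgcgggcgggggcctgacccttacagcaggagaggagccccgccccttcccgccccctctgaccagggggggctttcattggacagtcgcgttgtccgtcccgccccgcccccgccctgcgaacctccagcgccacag
Sfrp5, chr19:42202253-42202502, minus strand: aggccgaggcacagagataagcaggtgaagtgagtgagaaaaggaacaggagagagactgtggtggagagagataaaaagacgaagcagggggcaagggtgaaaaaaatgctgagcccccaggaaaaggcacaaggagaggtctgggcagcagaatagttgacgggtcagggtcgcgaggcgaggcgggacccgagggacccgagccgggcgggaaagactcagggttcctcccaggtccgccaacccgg
Fzd7, chr1:59481897-59482146, plus strand: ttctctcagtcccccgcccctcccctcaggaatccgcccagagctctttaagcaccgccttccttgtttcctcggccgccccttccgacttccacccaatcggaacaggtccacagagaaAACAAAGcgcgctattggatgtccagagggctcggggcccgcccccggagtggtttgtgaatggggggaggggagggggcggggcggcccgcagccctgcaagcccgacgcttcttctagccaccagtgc
Wnt5b, chr6:119449387-119449636, minus strand, the start among 3 of this gene whose window held a match: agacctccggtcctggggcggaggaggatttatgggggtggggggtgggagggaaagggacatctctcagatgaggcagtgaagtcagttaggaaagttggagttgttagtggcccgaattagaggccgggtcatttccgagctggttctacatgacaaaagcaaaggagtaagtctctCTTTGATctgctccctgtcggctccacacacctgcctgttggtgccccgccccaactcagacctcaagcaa
Fzd4 and Sfrp5 held none of these words in this window, Fzd7 held 1 on the other strand whose first printed letter lies 130 bases before the start, and Wnt5b held 1 on its own strand that begins 71 bases before it. Promoters could be matched for 29 of the 45 genes. Of their 32 promoters 4 held a word (12.5%, in Dkk1, Fzd7, Wnt11 and Wnt5b), against 14.8% of all 32851 promoters, a share not above that of all promoters. Fzd7 and Wnt5b are thus not typical of their tissues. The promoters of Wnt4, Wnt9a and Fzd9, also highest in muscle, and of Wnt2, also highest in liver, held none.

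Values are array intensities in arbitrary units, and those below 30, the threshold of the study's methods, were set to 30 before any ratio was formed. Each gene is given by its brightest probe set unless another is named, and levels are compared between arrays of a gene and never between genes. A fold against a group with values at the floor understates the difference. Of the 45 genes, 9 reached 30 on all 12 arrays and 5 (3 Wnt genes, 1 Dkk and 1 Rspo) on none. Libraries within a tissue had r between 0.925 and 0.962 across probe sets, which are not independent, against at most 0.909 between tissues. Within WAT, 2 arrays stood apart in cell type markers. WAT saline replicate 2 had a summed intensity of 17526 over 8 smooth muscle genes, against 2027 to 2403 on the other WAT arrays, and of 4532 over 8 uterus genes, against 1571 to 1811. WAT saline replicate 1 had 20021 over 6 brown adipocyte genes, against 1969 to 4076, and 4030 over 8 skeletal muscle genes, against 948 to 1632, and all 6 brown adipocyte genes and 7 of the 8 skeletal muscle genes were 2-fold lower in UAG than in saline WAT. Their part in the members' values was not tested. The tissue labels were borne out by hepatocyte and muscle fibre genes, all 7 and all 8 of which were called highest in liver and in muscle. The muscle arrays also carried fat cell RNA, with Adipoq at 7674 to 11936 there and at 12280 to 14161 in WAT, and 3 of the 6 adipocyte genes were called highest in WAT. The 6 brown adipocyte genes summed to 19506 and 14531 on the UAG arrays of muscle, against 22146 and 18409 on the saline arrays, and 5 of them had a log2 difference below 0 (median -0.77, none called by limma). Of these 6 genes, 2 were called highest in muscle and 0 in WAT. What part of their sum in muscle came from brown fat cells was not tested. Muscle saline replicate 2 had the uterus gene Pgr at 400.2 and the epithelial gene Krt19 at 1015, against at most 49.5 and 206 on the other muscle arrays.

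The members first differed by tissue. A gene was called between 2 tissues where limma, fitted to all 12 arrays with a mean for each tissue and treatment, gave a Benjamini-Hochberg adjusted p under 0.05 and the difference was at least 2-fold. Among the 32 members tested, 7 were higher and 4 lower in WAT than in muscle (21.9% and 12.5%, against 12.5% and 9.08% of all genes tested), 12 were higher and 4 lower in WAT than in liver (37.5% and 12.5%, against 17.8% and 13%), and 10 were higher and 7 lower in muscle than in liver (31.2% and 21.9%, against 18.5% and 15.9%). The medians of the members' log2 differences were 0.22, 0.23 and 0.16 in the same order, against 0.10, 0.08 and 0.05 for all genes. In bulk tissue, fewer cells of a type and less RNA per cell cannot be told apart. In all 14 members were called higher in 1 tissue than in both others: 6 in WAT (18.8%, against 6.96% of all genes), 4 in muscle (12.5%, against 6.73%) and 4 in liver (12.5%, against 10.6%). The adjusted p was at most 0.00125 in every one of these contrasts.

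WAT was the tissue of the R-spondin Rspo1, of the Wnt-binding proteins Sfrp2 and Sfrp4 and of the receptors Fzd1, Fzd2 and Fzd3. Rspo1 read 428 and 268 on the UAG arrays and 197 and 332 on the saline arrays of WAT, and was below 30 on every muscle and liver array, so that WAT was at least 9.81-fold above each (adjusted p = 3.86e-07 against muscle and 1.19e-07 against liver). Sfrp2 read 342 and 420 on UAG and 288 and 286 on saline arrays of WAT. In muscle it read 103 and 129 with UAG and 81.2 and 105 with saline, and in liver it was below 30 throughout, a WAT level 3.19-fold above muscle and at least 10.98-fold above liver (adjusted p = 7.37e-06 and 6.25e-09). No WAT array of Rspo1 or Sfrp2 overlapped with any array of another tissue. Sfrp4 read 573 and 438 on UAG and 403 and 623 on saline arrays of WAT, against 198 to 232 in muscle and 97.6 to 203 in liver, 2.28-fold above muscle and 3.66-fold above liver. Fzd1 read 783 and 828 on UAG and 583 and 746 on saline arrays of WAT, against 164 to 315 in muscle and 209 to 310 in liver (2.99-fold and 2.78-fold). Fzd2 read 138 and 143 on UAG and 116 and 215 on saline arrays of WAT, against 39.3 to 70.5 in muscle, and was under 30 on all liver arrays but saline replicate 1, at 43.7 (2.77-fold above muscle and at least 4.53-fold above liver, most values of which were set to the floor). Its other probe sets were 5.30-fold and 1.78-fold above muscle, and that with the smaller fold was not called. Fzd3 read 84.5 and 67 on UAG and 66.6 and 67.8 on saline arrays of WAT, against at most 51.4 in muscle and 33 in liver. It was just past the fold required, 2.03-fold above muscle (adjusted p = 0.000498), and dropped below it when muscle saline replicate 1 or the WAT array UAG replicate 1 was left out. A second Fzd3 probe set was 1.61-fold above muscle and not called, and another was below 30 on all WAT arrays and read 38.4 to 47.8 on 3 liver arrays. No Wnt ligand among the 19 was called highest in WAT.

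Muscle held the highest levels of 2 ligands, Wnt4 and Wnt9a, and of 2 receptors, Fzd7 and Fzd9. Fzd7, a receptor of satellite cells and other progenitors, read 914 and 669 on UAG and 834 and 666 on saline arrays of muscle. It read 246, 197, 267 and 294 on the WAT arrays and 272, 271, 148 and 213 on the liver arrays (UAG pair, then saline pair), a muscle level 3.08-fold above WAT and 3.48-fold above liver (adjusted p = 1.19e-05 and 1.73e-06). Its second probe set, too dim to be tested, was at most 37.8 on all arrays but muscle saline replicate 1, at 68.1. Wnt4 read 204 and 136 on UAG and 213 and 171 on saline arrays of muscle, against at most 64.1 in WAT and 59.2 in liver (4.51-fold and 4.93-fold). Its second probe set was likewise at its highest in muscle, at 92.5 to 98.8, with 45.04 to 63.03 in liver and at most 39.6 in WAT. Wnt9a, a ligand known from joint development, read 179 and 157 on UAG and 173 and 112 on saline arrays of muscle, against 48.5 to 64.4 in WAT and at most 58.1 in liver, 2.73-fold above WAT and 3.87-fold above liver. Fzd9 read 110 and 104 on UAG and 142 and 104 on saline arrays of muscle and was below 30 on all WAT arrays, where muscle was at least 3.81-fold higher, and at most 50 in liver, where muscle was 3.34-fold higher. The muscle and other arrays did not overlap for any of these 4 genes.

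Liver held the highest levels of Lgr5, Fzd8, Wnt2 and Wnt5b. Lgr5, a receptor of R-spondins and itself a Wnt target gene, read 152 and 160 on UAG and 155 and 251 on saline arrays of liver and at most 34.6 on any other array, at least 5.54-fold above WAT and 5.65-fold above muscle, since 2 WAT and 3 muscle arrays were below the floor (adjusted p = 3.75e-07 and 2.86e-07). Fzd8 read 294 and 243 on UAG and 332 and 390 on saline arrays of liver, against 75.6 to 90.5 in WAT and at most 79.1 in muscle (3.64-fold and 5.64-fold). Wnt2 read 108 and 89.8 on UAG and 67.5 and 107 on saline arrays of liver, against at most 45.9 in WAT and 44.8 in muscle, 2.58-fold above WAT and 2.43-fold above muscle. Wnt5b read 83.3 and 121 on UAG and 59.9 and 65.1 on saline arrays of liver, 2.59-fold above WAT, at most 32.2, and at least 2.64-fold above muscle, where every array was below 30. Of the 8 secretion and inhibition genes 1 was called highest in liver and 1 in WAT, and of the 8 co-receptor and turnover genes 2 in liver. Notum, a secreted esterase that inactivates Wnts, read 421 to 543 in liver and at most 44.2 elsewhere, Rnf43 read 124 to 164 and was below 30 elsewhere, and Znrf3 was the other turnover gene. Of the hepatocyte genes measured, 5 of the 7 pericentral and 3 of the 4 periportal were called highest in liver, against 10.6% of all genes.

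**Figure D1:**
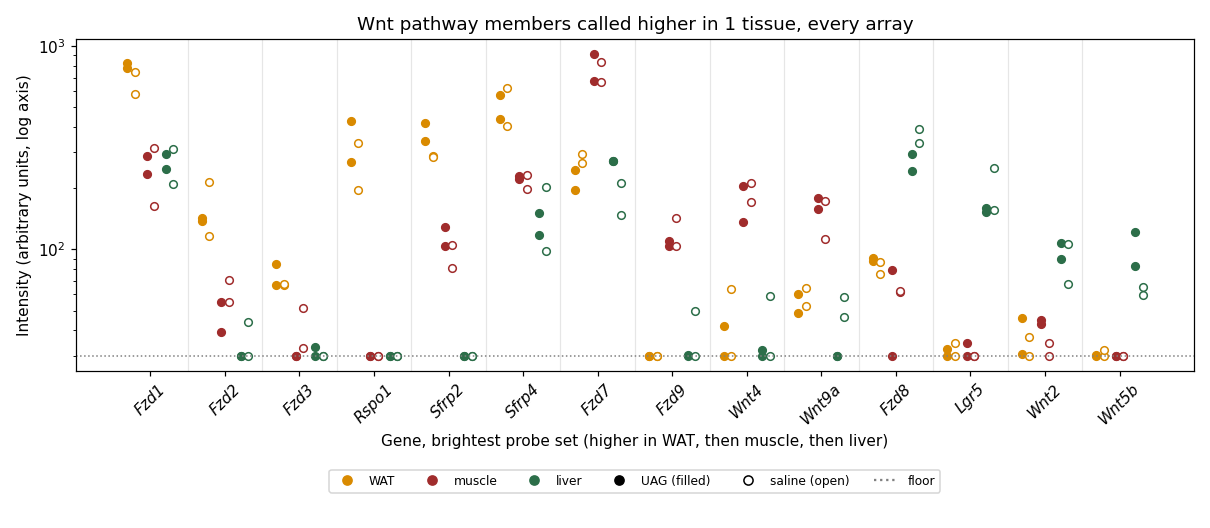
Intensity (log axis, arbitrary units) of the 14 members called higher in 1 tissue than in both others, on all 12 arrays; colours are tissues, filled points UAG and open points saline, the dotted line the floor of 30. Rspo1 lies on the floor on every muscle and liver array, and Fzd7, Wnt4 and Lgr5 each have 1 tissue whose 4 arrays lie above all others.

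Other members were set apart by the tissue in which they were lowest. Wnt5a, a ligand of the branches that do not use beta-catenin, read 153 and 134 on UAG and 180 and 147 on saline arrays of WAT and 85.5 to 108 in muscle, against at most 37.7 in liver (4.71-fold and 2.93-fold above liver). Fzd4 was 4.67-fold higher in WAT and 2.86-fold higher in muscle than in liver (adjusted p = 6.58e-08 and 1.37e-06). Sfrp1, Sfrp5 and Dkk2 were also lower in liver than in WAT and in muscle. Rspo3 ran the other way: below 30 on all 4 muscle arrays, it read 96.8 and 100.03 on UAG and 80.3 and 141 on saline arrays of liver, at least 3.41-fold above muscle. Lgr4 was detected in all tissues, at 957 to 1066 in liver, 346 to 585 in muscle and 414 to 894 in WAT. WAT had 150 and 171 for Rspo3 with UAG and 39.3 and 579 with saline, a spread taken up below.

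After UAG, differences of 2-fold among the members were found mainly in WAT, and none passed a test across all genes. The 2-fold rule of the methods, by which the mean over UAG arrays is at least 2 or at most 0.5 times that over saline arrays, was applied with no p-value and was met by 4 of the 27 members tested there (14.8%, against 2.46% of all genes, with 2 higher, against 0.509%, and 2 lower, against 1.95%), by none of 28 in muscle (against 0.639%) and by 1 of 28 in liver (3.57%, against 0.608%). In WAT the higher members were Fzd4 and Sfrp5, and the lower members Lgr6 and Dkk2. By probe set 7 of 42 met the rule in WAT (16.7%, against 1.97%). All 7 belonged to these 4 genes, so this count is not independent of that by gene. limma on the 4 arrays of a tissue, adjusted over all probe sets tested, called no member in any tissue. At an unadjusted p under 0.05, 4 of 27 members passed in WAT (14.8%, against 7.12% of all genes), 0 of 28 in muscle (against 1.85%) and 7 of 28 in liver (25%, against 3.38%). The smallest adjusted p of a member was 0.508 in WAT. UAG and saline arrays did not overlap for 10 of 27 members in WAT (37%, against 38.1% of all genes) and for 7 of 28 in muscle (25%, against 21.6%), shares near those of all genes. With 2 arrays a group the smallest 2-sided p of an exact permutation test is 0.333. The median of the members was close to that of all genes: the median log2 difference was 0.02 in WAT (0.03 for all genes), 0.07 in muscle (0.01) and -0.02 in liver (0.01).

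**Figure D2:**
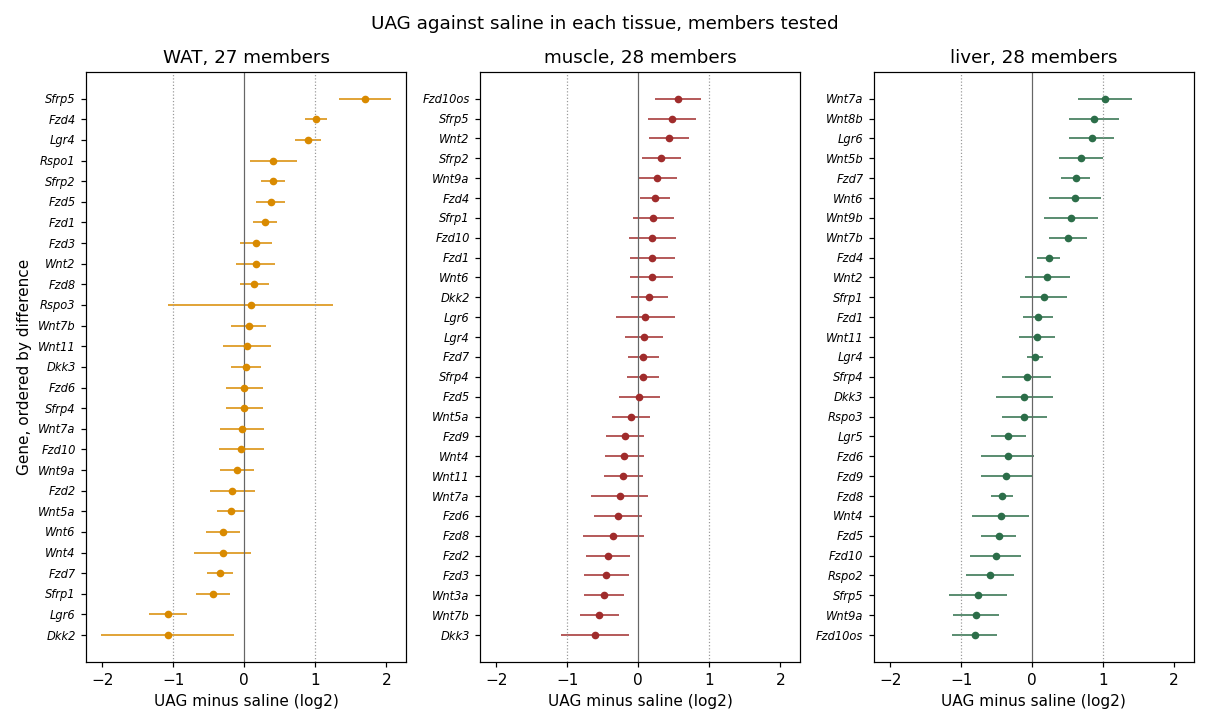
UAG minus saline (log2, after the floor) for each member tested in WAT, muscle and liver; points are limma's estimates from 2 UAG and 2 saline arrays and bars their standard errors, with dotted lines at 2-fold. Sfrp5 and Fzd4 lie at the top of the WAT panel and Lgr6 and Dkk2 at the bottom, Dkk2 and Rspo3 with the widest bars.

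Fzd4, a receptor of endothelial cells, adipocytes and other cells that also binds the ligand norrin, read 1727 and 1704 on the UAG arrays of WAT, against 926 and 788 on the saline arrays. The means were 1716 ± 15.9 and 857 ± 97.3 (SD, n = 2 each), a ratio of 2.00 and a log2 difference of 1.01 ± 0.15 (SE; adjusted p = 0.508, limma). The groups did not overlap, and this was the lowest p among the members in WAT. A second probe set had 1495 and 1596 with UAG and 879 and 563 with saline (ratio 2.14), and the dimmest had 169 and 227 against 173 and 111 (ratio 1.39), with groups that overlapped. In muscle the ratio was 1.19 and in liver 1.17. Over 8 endothelial genes the summed intensity was 3798 and 3881 on the UAG arrays of WAT, against 3726 and 3016 on the saline arrays. The part of endothelial content in the Fzd4 values was not tested.

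Sfrp5, a secreted Wnt-binding protein made by adipocytes, had the largest ratio of UAG to saline among the members in WAT. It read 381 and 202 on the UAG arrays of WAT, against 106 and 69.1 on the saline arrays, a ratio of 3.34 and a log2 difference of 1.70 ± 0.37 (SE; adjusted p = 0.58, limma). A second probe set had 198 and 146 with UAG, against 65.04 and below 30 with saline (ratio 3.62). Neither probe set overlapped between groups. In muscle the ratio was 1.37 with overlapping groups, and in liver 0.616, with 60.8 and a value below 30 on UAG arrays and 86.6 and 60.9 on saline arrays. The difference of the UAG effect between WAT and liver was 2.47 ± 0.62 (SE, log2; adjusted p = 0.709, limma). The mesothelial and epithelial markers summed to 4788 and 2596 on the UAG arrays of WAT, against 2774 and 2831 on the saline arrays, UAG replicate 1 having the highest sum and the highest Sfrp5. Over 6 adipocyte genes the sums were 49215 and 53797 with UAG and 50832 and 44569 with saline. The part of either cell type in the Sfrp5 values was not tested.

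Lgr4, a widely expressed receptor of R-spondins, was just short of the rule in WAT. It read 662 and 894 on UAG arrays, against 414 and 414 on saline arrays (ratio 1.88, log2 difference 0.90 ± 0.19, SE, adjusted p = 0.569). The ratio was 2.16 without UAG replicate 1, 1.60 without UAG replicate 2 and 1.88 without either saline array. In muscle and liver it was 1.03 and 1.03. Lgr6, also a receptor of R-spondins, had the opposite sign in WAT, at 33.8 on both UAG arrays, against 57.7 and 87.7 on the saline arrays (ratio 0.465, log2 difference -1.07 ± 0.27, SE, adjusted p = 0.644). Its second probe set was below 30 on both UAG arrays and had 41.3 and 176 on the saline arrays, the higher on saline replicate 2. The UAG values of Lgr6 lie close to or below the floor, and without saline replicate 2 the ratio of the brighter one was 0.586. Sfrp1 did not meet the rule on its brightest probe set (123 and 114 on UAG arrays, 134 and 194 on saline arrays, ratio 0.723), but it and 3 other probe sets were lower on both UAG arrays than on both saline arrays, at ratios of 0.519 to 0.723, and the remaining one was below 30 on all WAT arrays. The higher saline value of the brightest was on saline replicate 2. Without that array its ratio was 0.887, and without saline replicate 1 it was 0.610.

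**Figure D3:**
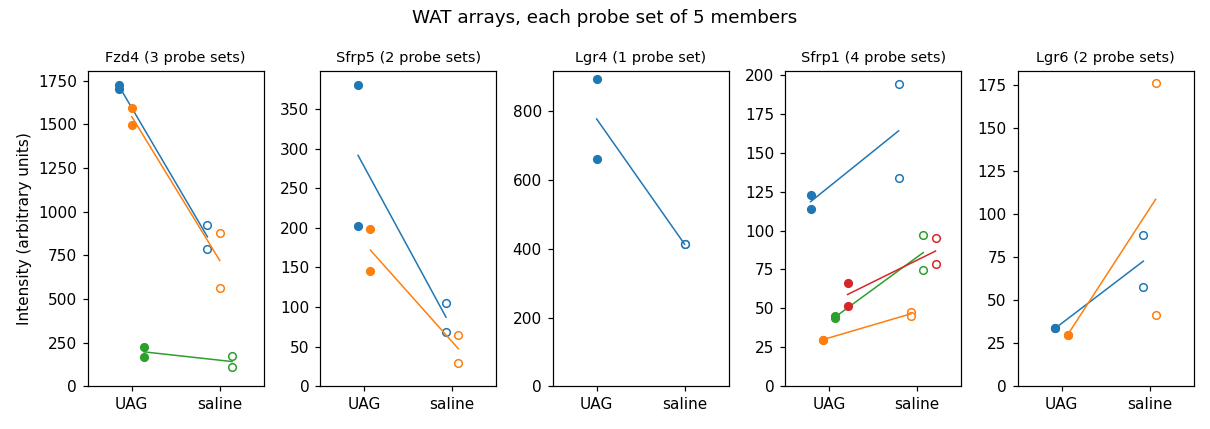
Intensity (arbitrary units, axes from 0) on the WAT arrays for each probe set of Fzd4, Sfrp5, Lgr4, Sfrp1 and Lgr6 with a mean of at least 30 in WAT; filled points are UAG and open points saline arrays, values below 30 are drawn at 30, and lines join the means of a probe set. The UAG arrays lie above the saline arrays for Sfrp5, Lgr4 and 2 of 3 Fzd4 probe sets and below them for Sfrp1 and Lgr6.

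Dkk2 and Rspo3 turned on a single array. Dkk2, an inhibitor of the Lrp co-receptors, read 55.3 and 54.2 on the UAG arrays of WAT, against 39.4 and 341 on the saline arrays, a ratio of 0.288 with groups that overlap (log2 difference -1.08 ± 0.94, SE, adjusted p = 0.851). Rspo3, an R-spondin of endothelial and stromal cells, read 150 and 171 with UAG, against 39.3 and 579 with saline, a ratio of 0.520 with groups that overlap. Its log2 difference had the other sign, at 0.09 ± 1.16 (SE, adjusted p = 0.991, limma). Saline replicate 2 was the high array in both genes. Without it the ratio of Dkk2 was 1.39 and that of Rspo3 was 4.09, so both were then higher in UAG than in saline WAT. Without saline replicate 1 they were 0.161 and 0.277. The receptor Ror2, which takes Wnt5a and is not a member, had the same pattern, at 34.4 and 38.7 with UAG and below 30 and at 400.2 with saline, and so did the Wnt-binding protein Frzb, at 68.97 and 68.1 with UAG and 44.04 and 166 with saline. This array is the one with the high smooth muscle sum, in which 7 of the 8 genes were 2-fold lower in UAG than in saline WAT, and with the high uterus sum, Pgr standing at 1069 there and at 33.5 to 47.5 on the other WAT arrays. Its part in the levels of these members was not tested beyond leaving it out. Of the 4 members that met the rule in WAT, Sfrp5 still did so without it, at a ratio of 2.76; Fzd4 was then at 1.85.

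**Figure D4:**
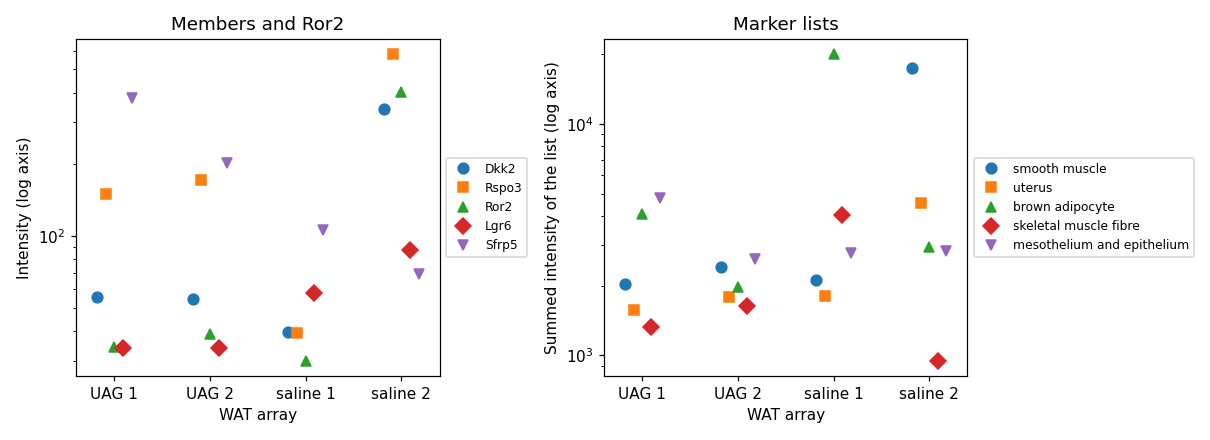
Left, intensity (log axis) of Dkk2, Rspo3, Ror2, Lgr6 and Sfrp5 on the 4 WAT arrays, with values below 30 drawn at 30; right, summed intensity (log axis) of 5 marker lists on the same arrays. Dkk2, Rspo3 and Ror2 peak on saline replicate 2 with the smooth muscle sum of 17526, while Sfrp5 is highest on both UAG arrays.

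In liver, Wnt7a, a ligand known from limb patterning, was the member that met the 2-fold rule, at 48.3 and 88.4 on UAG arrays, against below 30 and 34.3 on saline arrays (ratio 2.13, log2 difference 1.03 ± 0.38, SE, adjusted p = 1). Without UAG replicate 2 or without saline replicate 1 it no longer met the rule. The brightest of the 7 members with an unadjusted p under 0.05 were Fzd7 and Fzd8. Fzd7 read 272 and 271 on UAG arrays, against 148 and 213 on saline arrays (ratio 1.51), and Fzd8 read 294 and 243, against 332 and 390 (ratio 0.745), also lower on its second probe set (ratio 0.762). The 2 receptors thus differed in opposite directions, with no overlap and by less than 2-fold. The other 5, Wnt7a, Wnt8b (ratio 1.81), Lgr6 (1.79), Wnt9a (0.574) and Fzd10os (0.571), were below 100 on every liver array and below 30 on at least 1. Of the members beyond these 7, Wnt5b was at 1.64 on its brightest and 1.85 on its second probe set, with no overlap on either. Of the 28 members, 15 had UAG and saline arrays that did not overlap (53.6%, against 29.7% of all genes), 9 higher (against 15.2%) and 6 lower (against 14.4%). Those 5 and Rspo2, Sfrp5, Wnt6 and Wnt9b were among the 15, each with at least 1 liver value set to the floor. In Lgr6 and Wnt9b both saline arrays lay at the floor, and in Wnt9a both UAG arrays did. How far the share rests on such values was not tested. The actin 3′/5′ ratio, a sign of RNA integrity, was 1.95 and 2.36 on the UAG arrays of liver, against 1.70 and 1.78 on the saline arrays, and hepatocyte genes summed to 118928 on UAG replicate 2, against 85152 to 87230 on the other liver arrays; the part of either in these values was not tested.

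In muscle no member met the rule. The ratios ran between 0.657 for Dkk3, an atypical Dkk, with 67.7 and below 30 on UAG and 103 and 45.6 on saline arrays, and 1.52 for Fzd10os. Sfrp5 and Fzd4, the members that were 2-fold higher in WAT, had ratios above 1 in muscle on all of their probe sets. The second Fzd4 probe set had 697 and 840 with UAG against 603 and 522 with saline, and the second Sfrp5 probe set 83.9 and 75.4 against 53.4 and 52.9, while both brightest probe sets overlapped between groups. The UAG effect did not differ between any 2 tissues for a member at an adjusted p under 0.05 in limma (against 0.00794% of all genes for WAT against muscle and none for the others). Before adjustment, 3 of 32 members had a p under 0.05 for WAT against muscle (9.38%, against 3.65% of all genes), 10 for WAT against liver (31.2%, against 4.53%) and 5 for muscle against liver (15.6%, against 2.49%). Fzd4 was among them for WAT against muscle and WAT against liver, with a UAG effect larger in WAT by 0.77 and 0.78 on the log2 scale. For WAT against liver, Fzd10os, Lgr6, Sfrp5, Wnt5b, Wnt6 and Wnt8b had values set to the floor. For muscle against liver, Fzd10os, Wnt5b, Wnt8b and Wnt9a did. Wnt8b lay at the floor on all WAT and muscle arrays and Wnt5b on all muscle arrays, so those differences were of liver alone. How far these shares rest on such values was not tested.

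Among other genes of the pathway none passed the test. The lists held 8 genes for ligand secretion and inhibition, 8 co-receptors and turnover genes and 14 of the beta-catenin destruction complex and its transduction. They also held 13 nuclear effectors, 11 feedback and target genes and 7 of planar polarity. Not all were bright enough to be tested in each tissue: of the first 8, only 4 were tested in WAT. Of those tested, none was called by limma after UAG in any tissue, and Ror2 in WAT alone met the 2-fold rule. Beta-catenin (Ctnnb1) read 3889.9 and 3969 on UAG and 3606 and 4215 on saline arrays of WAT, and the target gene Axin2 had 167 and 172 with UAG and 210 and 144 with saline, both with overlap. In WAT 8 of the 10 feedback and target genes tested were below 0, with a median log2 difference of -0.32, where 54.4% of all genes were above 0 and their median was 0.03. Tnfrsf19, a Wnt target of the TNF receptor family, had 45.3 and 44.7 with UAG against 68.4 and 84.5 with saline (ratio 0.589), Ccn5 a ratio of 0.591 with overlap, and Nkd2, an inhibitor of dishevelled, 0.687, while Dact1, which also binds dishevelled, had 359 and 354 against 258 and 216, a log2 difference of 0.59. The co-repressor Tle3 read 539 and 463 against 265 and 391 (ratio 1.53) and Gsk3a, a kinase of the destruction complex, 594 and 533 against 722 and 740 (ratio 0.771). In liver 8 of 9 feedback and target genes were above 0 (median 0.25), against 51.6% of all genes (median 0.01), the largest difference being that of Myc, at 152 and 376 with UAG and 44.9 and 228 with saline, with overlap. The pericentral hepatocyte genes, which depend on Wnt signals in mouse liver, had log2 differences between -0.02 and 0.28 in liver, none called, and the periportal genes between -0.45 and 0.24. In WAT, Rhbg of the pericentral list, an ammonium transporter, met the 2-fold rule with 43.7 and 57.6 on UAG and 125 and 93.2 on saline arrays (ratio 0.464) and did not pass limma. In muscle the largest difference of the secretion and inhibition list was that of Wif1, a secreted Wnt inhibitor, at 92.5 and 83.4 with UAG against 73.2 and 35.5 with saline (ratio 1.62).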

How the data were processed

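Total RNA was hybridized to 12 arrays. The deposited table holds the authors' normalized intensities on a log2 scale; MAS5 is named in the submitters' processing notes, quantile normalization and an intensity threshold of 30 in the methods, and the table still held values below it. The base is not stated and was taken as 2: the highest value, 14.7, then stands for an intensity of 25724, and with base e for 2305490. No per-sample column was left unused (0). Gene names came from the platform annotation. Of several probe sets, the brightest by its mean on all 12 arrays stood for the gene. Values below 30 were set to 30. limma 3.58.1 in R 4.3.3 was fitted with an intensity trend over probe sets with a mean of at least 30, on the 4 arrays of a tissue for UAG and on all 12 for tissues and differences of the UAG effect, adjusted by Benjamini-Hochberg across every probe set in the fit. These 12-array fits have no term for the mouse. Ratios are of arithmetic means, and folds between tissues of geometric means. The methods were tested on simulated data, in which UAG shifts were placed only in probe sets well above the floor. That test does not cover members near the floor. Per-array values were given for members that met the 2-fold rule or were called highest in 1 tissue, and other genes were named by size of difference or to complete a family; members and lists were chosen with earlier results of these data known. Fzd7, Fzd8, Lgr4, Sfrp1, Rspo3 and Wnt5a were added to the named genes after their values were seen, as were the genes of the pathway lists other than those past the rule and the largest 4 of a list. Alternatives were other floors, filters, normalizations and summaries, a replicate block and each array left out.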

Additional observations from a re-analysis of the deposited data

Results flagged for a closer look

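Among the members with a mean of at least 30, an array lay far from the other 3 of its tissue in 8 of the 83 sets of 4 arrays looked at. Values below 30 had been set to 30 first. In Fzd3 in muscle and in Fzd9, Wnt4 and Wnt9b in liver, other arrays lay at that floor, which narrows their spread. The share that chance alone would flag is therefore not known. In WAT these were Dkk2 at 341 on saline replicate 2 (others 39.4 to 55.3) and Fzd3 at 84.5 on UAG replicate 1 (66.6 to 67.8). In muscle they were Fzd3 at 51.4 on saline replicate 2 (at most 32.7) and Fzd9 at 142 on saline replicate 1 (104 to 110). In liver they were Fzd9 at 50 on saline replicate 1 (at most 30.2), Lgr5 at 251 and Wnt4 at 59.2 on saline replicate 2 (152 to 160 and at most 31.9), and Wnt9b, an endothelial ligand of the liver, at 59 on UAG replicate 2 (at most 32.4).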

How the results depend on the processing

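The number of arrays limits every value, and dim members lie near the floor. With no floor, 1 member in muscle and 6 in liver met the 2-fold rule after UAG. With a floor of 100, none did in liver, 5 members were called between WAT and muscle, 6 between WAT and liver and 4 between muscle and liver, and Fzd5 passed for a different UAG effect, 1 member in WAT against liver and 1 in muscle against liver. At that floor every WAT and muscle value of Fzd5 and both liver UAG values were set to 100. Both differences (0.27, log2) were thus only the height of the liver saline arrays above the floor. With a minimum mean of 100, the counts called between tissues were 6, 8 and 7. With the mean of all probe sets, 10 members were called between muscle and liver and none was 2-fold in liver. Leaving out each array in turn, 2 to 5 members met the 2-fold rule in WAT; muscle had 0 to 2 and liver 0 to 2, where leaving out saline replicate 1 gave 0. Without muscle UAG replicate 1, Dkk3 (0.404) and Fzd8 (0.483) met the rule. limma called 0 to 0 members after UAG in each tissue; 0 to 1 for the UAG effect in WAT against muscle and WAT against liver, Dkk2 without WAT saline replicate 1 (adjusted p = 0.00795 and 0.00998), and 0 to 0 for muscle against liver. Tissue counts were 10 to 12 for WAT against muscle, 14 to 17 for WAT against liver and 13 to 17 for muscle against liver. The log2 difference of Dkk2 in WAT was 0.48 without WAT saline replicate 2 and -2.64 without WAT saline replicate 1. With the replicate block 1 member was called after UAG in WAT, Sfrp5 (adjusted p = 0.0382), and the other counts kept their main values; the labels do not pair the arrays, and deviations of same-numbered UAG and saline arrays correlated at -0.176 in WAT, 0.177 in muscle and -0.0284 in liver. The crossed block in WAT, added after seeing the data, called 0. Wnt9a and Lgr5 dropped below 2-fold with the mean of all probe sets (in WAT against muscle and muscle against liver for Wnt9a, and in both contrasts with liver for Lgr5), and Fzd3 and Sfrp4 were not called between WAT and muscle on the 6 saline arrays alone.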
